A study of Homo sapiens with 8 samples.

Results

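The genes described here are 43 human genes that encode the chains of the extracellular matrix and its receptors, 25 collagens and 18 integrins, out of 27449 genes in all. They are a part of both families, picked with earlier results of these data known but by no threshold on the measured values, and 27 further collagen and integrin genes were not among them. An H3K27Ac region was counted for a gene when it overlapped the gene body or lay within 50 kb of the transcription start site (TSS) in GRCh38. By this rule the 43 genes held 134 of the 20875 regions of UW228, 80 of 26072 in MB002, 97 of 26317 in D425 and 75 of 15286 in HD-MB03.

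MB002, D425 and HD-MB03 are established cell lines of group 3 subtype medulloblastoma (G3-MB), a childhood brain tumor. UW228 is an established medulloblastoma line that the labels place in the SHH subtype and that the study used as a non-G3 line. No line was treated or edited. Each had 1 ChIP-seq library of H3K27Ac, an acetylation mark found at active enhancers and promoters, and 1 input library, which holds chromatin without antibody selection. MB002 and HD-MB03 were grown in Tumor Stem Media, whereas D425 and UW228 were grown in DMEM with serum. The UW228 table was also made at a later date than the other 3. A single G3-MB line in serum does not separate medium from line, so subtype, line, medium and date cannot be told apart for UW228, and a comparison of 3 lines with 1 could not give an exact permutation p below 0.25. No test was run between lines for this reason, and every comparison is a description of single libraries.

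Collagens are secreted proteins whose chains wind into a triple helix. Fibrillar collagens form the tensile fibers of connective tissue, network collagens form sheets such as the basement membrane, and the FACIT and beaded filament types decorate or link these structures. Integrins are heterodimers of an alpha and a beta subunit that span the cell membrane, bind matrix proteins outside the cell and connect them to the actin cytoskeleton. In normal brain, basement membrane collagens are found mainly around blood vessels and at the pial surface, and fibrillar collagens are sparse within the tissue itself.

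Signal is the H3K27Ac value of a region minus its input value, with negative results set to 0. The deposited values are read densities scaled to library size and summed over the length of the region, and the rank of a region by signal minus input was the deposited ROSE rank for all regions of all 4 lines. For a gene the regions were summed and given in ppm (parts in 1e+06) of the signal of all regions of the line. Its best rank was divided by the number of regions of the line and is given as a percentile, where a low value is a strong region. Super-enhancers (SEs) are the regions the deposited tables call by that name. Depth is unknown from these values, and no counting interval was given.

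Marker genes bear on the labels of the lines, and their counts stand beside all genes. Of all genes, 59.0% had a region and 5.24% an SE in UW228. In the G3-MB lines 54.2% to 69.0% had a region and 3.03% to 4.18% an SE. A better percentile in UW228 than in every G3-MB line was seen for 20.3% of all genes and a worse one for 23.7%. *OTX2*, a transcription factor typical of G3-MB, had regions of rank 3, 3 and 5 in MB002, D425 and HD-MB03, and UW228 had none. Of the 7 Group 3 markers listed, 5 ranked worse in UW228 than in every G3-MB line, *GABRA5* had a region in MB002 only, and *NPR3* went the other way with regions in UW228 only (247 ppm). Of 8 SHH marker genes, 7 had a region in UW228 but none had an SE there, and HD-MB03 had SEs at 3. Their summed signal was lowest in UW228, with 410 ppm against 795, 828 and 3061 ppm in MB002, D425 and HD-MB03, and 1 ranked better there than in every G3-MB line and 2 worse. Of 10 mesenchymal marker genes, all had a region in UW228, with SEs at *PRRX1*, *FAP* and *VIM*, against 6 or 7 with a region and none with an SE in the G3-MB lines. Their summed signal was 1780 ppm in UW228 and between 257 (D425) and 960 ppm in the G3-MB lines. *FAP* had no region in any G3-MB line. By best percentile, 7 of the 10 ranked better in UW228 than in every G3-MB line and none worse. Summed signal went the other way at *PRRX1* (492 ppm in UW228, 652 in MB002) and *PDGFRB* (51.4 in UW228, 168 in MB002). It did so as well at *DCN* (7.11 in UW228, 51.1 in MB002) and *THY1* (26.4 in UW228, 385 in HD-MB03). Of 6 endothelial markers, 6 had a region in UW228 with 901 ppm in all, against 178 to 279 ppm (D425) in the G3-MB lines. The part of cell type in the values below was not tested.

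Collagen and integrin genes carried SEs mainly in UW228. An SE was assigned to none of the 43 genes in MB002 (all genes 3.18%), to *ITGB5* in D425 (all genes 4.18%), to *COL5A1* and *COL6A1* in HD-MB03 (all genes 3.03%), and to 13 genes in UW228, which is 30.2% of the members beside 5.24% of all genes. The 27 collagen and integrin genes outside the list had none, so over the 70 genes of both families the share in UW228 was 18.6%. Ranked by signal per bp instead of summed signal, 5 members reached an SE rank in UW228 (11.6%, all genes 4.03%), and of the 13 genes only *COL3A1* and *COL4A2* were among them. The 13 were *COL1A2*, *COL3A1*, *COL4A2*, *COL5A2*, *COL6A3*, *COL8A1*, *COL8A2*, *ITGA3*, *ITGA5*, *ITGB1*, *ITGB4*, *ITGB5* and *ITGB6*. Among the 11425 protein-coding genes at least as long as the shortest member, 6.21% had an SE in UW228. The presence of any region differed less. It was seen for 34 members in MB002 (79.1%, all genes 67.4%), 37 in D425 (86.0%, all genes 69.0%), 32 in HD-MB03 (74.4%, all genes 54.2%) and 38 in UW228 (88.4%, all genes 59.0%). Members are long, with a median of 90.1 kb against 17.5 kb over all genes, and any overlap with the body counts. Among the same 11425 protein-coding genes the shares with a region were 74.8%, 75.8%, 59.7% and 66.5% in MB002, D425, HD-MB03 and UW228. That background sets a minimum length and does not match lengths.

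**Figure D1:**
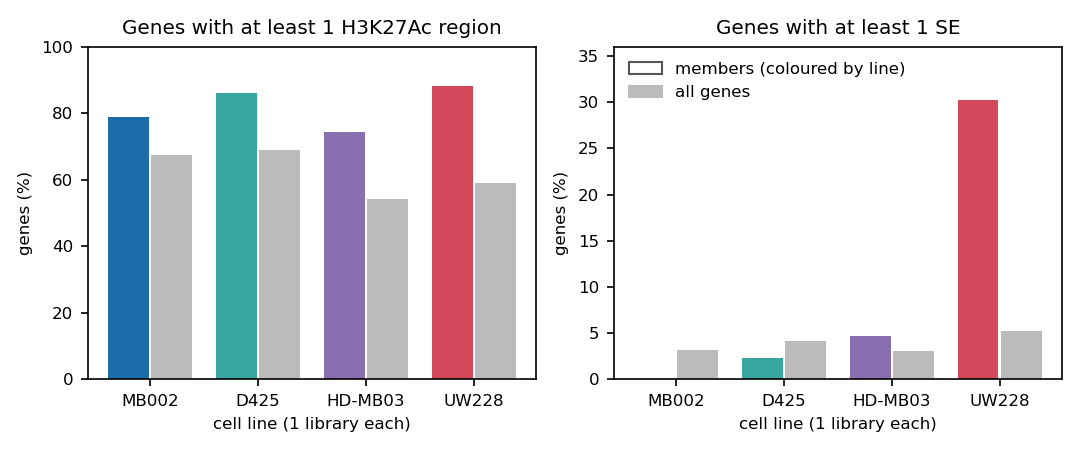
Bars give the share of genes, in percent, with at least 1 H3K27Ac region (left) or at least 1 SE (right) in each cell line, with the 43 collagen and integrin genes in color and all 27449 genes in gray. The shares with a region lie between 74.4% and 88.4% for the members, whereas the share with an SE is 30.2% in UW228 and at most 4.65% in the other lines.

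By rank, 23 of the 43 genes had a better percentile in UW228 than in every G3-MB line (53.5%, all genes 20.3%), and 5 had a worse one (11.6%, all genes 23.7%). By signal per bp 14 were better (32.6%, all genes 20.8%), of which 10 were among the 23. The call ended there for *COL1A2*, *COL5A2*, *COL7A1*, *COL8A1*, *COL8A2*, *COL12A1*, *COL13A1*, *COL15A1*, *ITGA5*, *ITGA11*, *ITGB1*, *ITGB4* and *ITGB6*. The 5 with a worse percentile were *COL2A1*, *COL6A1*, *COL27A1*, *ITGA4* and *ITGA8*, and each lost the call in some setting. *ITGA8* lost it with TSSs only, gene bodies only and a 25 kb window, *COL2A1* with equal numbers of regions and *COL27A1* by signal per bp. In the remaining 15 the UW228 value lay within the range of the G3-MB lines or was tied with a line that had no region. The median percentile over the 43 genes, with genes without a region placed last, was 10.1 in UW228, against 42.5, 24.7 and 45.6 in MB002, D425 and HD-MB03. Over all genes it was 75.6 in UW228 and 52.0, 46.7 and 83.9 in the G3-MB lines. D425 had the best median among the 3 G3-MB lines both over the members and over all genes. By summed signal D425 was the highest of the 3 at 15 of the 42 genes with a G3-MB region, HD-MB03 at 15 and MB002 at 12.

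All 43 genes had a region in at least 1 line (all genes 86.1%) and 20 had a region in every line (46.5%, all genes 32.5%). *COL6A3* had regions in UW228 only (2.33%, all genes 3.99%), and 5 members had regions in G3-MB lines but not in UW228 (11.6%, all genes 27.1%). *COL2A1*, *COL6A1* and *ITGA8* had regions in all 3 G3-MB lines but not in UW228, and *COL5A3* and *COL9A1* in MB002 and D425 only. *COL18A1*, *ITGA2* and *ITGB3* had regions only in D425 and UW228, the lines in serum (6.98%, all genes 4.25%). *COL5A1*, *ITGA3*, *ITGA10* and *ITGA11* had regions in UW228 and both lines in Tumor Stem Media but not in D425 (9.30%, all genes 2.81%), and *COL13A1* in HD-MB03 and UW228 only. Over all 43 genes the median log2 difference in summed signal (ppm + 1), UW228 minus the mean of the G3-MB lines, was 3.04, and over all genes it was 0. For the 20 genes with a region in every line the median was 1.66, and 13 of them lay above the G3-MB mean in UW228.

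**Figure D2:**
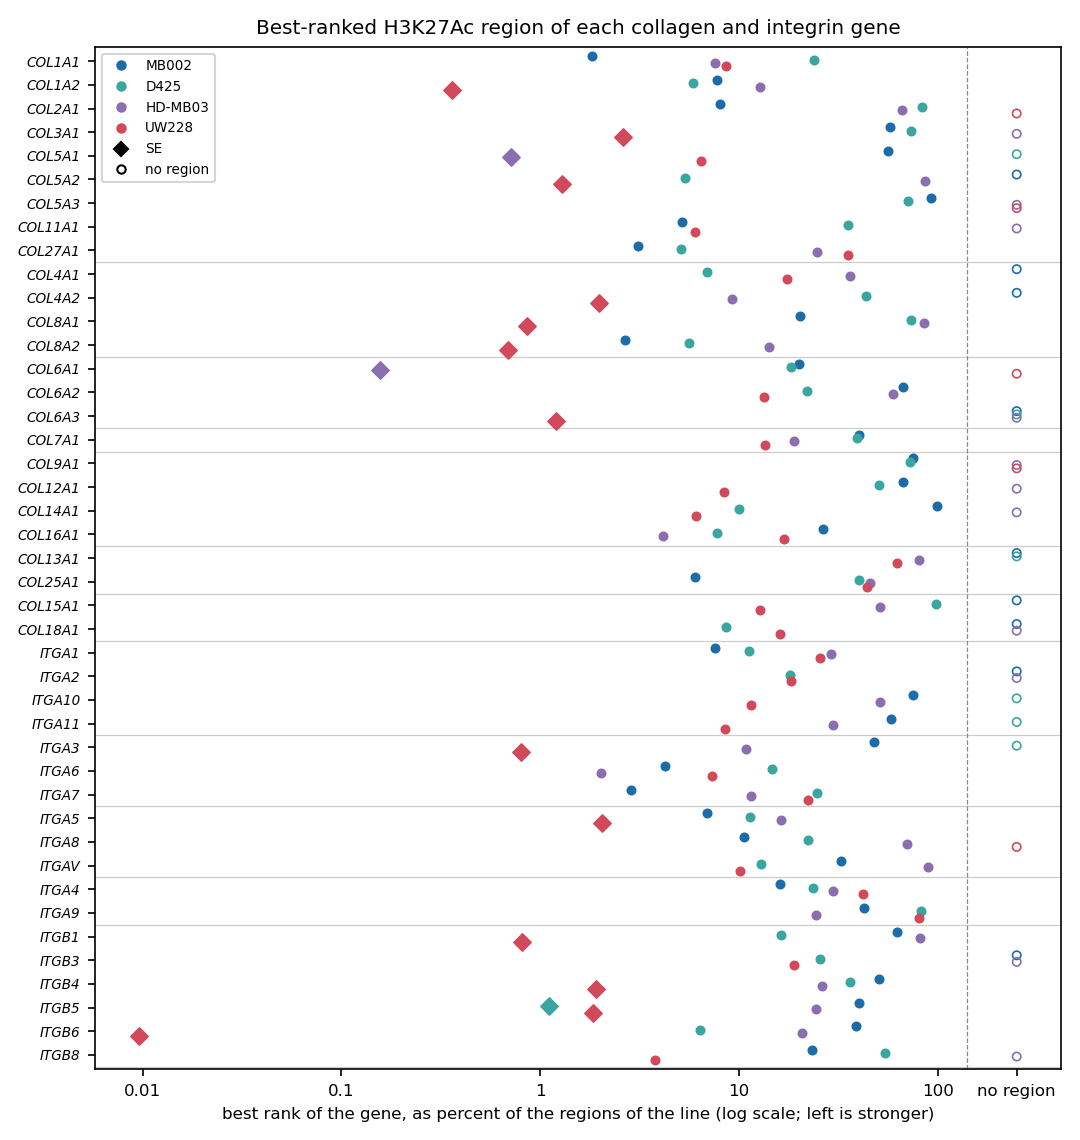
Each row is a gene, ordered by family, and each point gives its best-ranked H3K27Ac region as a percentile of the regions of 1 line on a log scale, with diamonds for SEs and open circles at the right for genes without a region. UW228 (red) holds 13 of the 16 diamonds and lies left of all G3-MB points in 23 rows, while *COL2A1*, *COL6A1* and *ITGA8* show the reverse with no UW228 region.

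Promoter sequences are shown for the members whose promoter window lay wholly inside a region, since the deposited regions are mostly TSS-distal. Such a window was available from RefSeq (GRCh38.p14) for 30 of the 43 genes, and it lay inside a region for 6 of them in UW228 (20.0%, all windows 7.09%), 4 in MB002 (13.3%, all 7.95%) and 1 each in D425 (3.33%, all 7.70%) and HD-MB03 (3.33%, all 5.88%). The 4 with the best rank in UW228 were *ITGB1*, *ITGA5*, *ITGB8* and *COL11A1*, and the 2 with the best rank in a G3-MB line and no cover in UW228 were *ITGA6* and *COL27A1*. The 250 bases before the TSS of the RefSeq window are given 5′ to 3′ on the strand of the gene. For *ITGB1* the last 95 bases are left out, and *ITGB8* is not shown, because GENCODE 44 annotates UTRs there. The window of *COL27A1* precedes a TSS 1439 bp inside the gene body used for the assignment. Capitals mark matches, on either strand, to the letters of AP-1 (TGANTCA), TEAD (GGAATG), OTX and CRX (TAATCC), SMAD (CAGACA) and the E-box (CANNTG).
ITGB1, chr10:32958326-32958480, minus strand: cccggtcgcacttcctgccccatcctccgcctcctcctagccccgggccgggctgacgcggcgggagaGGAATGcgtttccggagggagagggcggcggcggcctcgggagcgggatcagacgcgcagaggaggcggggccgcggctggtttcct
ITGA5, chr12:54419267-54419516, minus strand: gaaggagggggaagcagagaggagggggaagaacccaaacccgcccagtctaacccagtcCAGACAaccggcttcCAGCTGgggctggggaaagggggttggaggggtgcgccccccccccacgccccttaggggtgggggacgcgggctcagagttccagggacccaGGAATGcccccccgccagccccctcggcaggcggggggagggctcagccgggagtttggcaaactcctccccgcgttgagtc
COL11A1, chr1:103108523-103108772, minus strand: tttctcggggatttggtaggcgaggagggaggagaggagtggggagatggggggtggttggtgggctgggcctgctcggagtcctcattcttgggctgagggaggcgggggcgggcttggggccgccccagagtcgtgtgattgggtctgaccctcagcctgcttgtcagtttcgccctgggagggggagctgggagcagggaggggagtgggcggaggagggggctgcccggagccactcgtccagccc
ITGA6, chr2:172427086-172427335, plus strand: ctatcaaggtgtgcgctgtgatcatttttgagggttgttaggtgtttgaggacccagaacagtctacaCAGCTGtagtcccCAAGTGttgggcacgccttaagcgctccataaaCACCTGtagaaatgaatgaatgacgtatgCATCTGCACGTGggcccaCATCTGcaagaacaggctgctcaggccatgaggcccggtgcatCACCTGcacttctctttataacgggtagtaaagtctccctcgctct
COL27A1, chr9:114155287-114155536, plus strand: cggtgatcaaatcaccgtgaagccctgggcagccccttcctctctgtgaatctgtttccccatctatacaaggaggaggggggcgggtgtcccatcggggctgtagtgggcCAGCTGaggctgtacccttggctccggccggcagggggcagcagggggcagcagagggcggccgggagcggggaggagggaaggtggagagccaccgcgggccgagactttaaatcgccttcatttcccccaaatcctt

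The promoter windows of *ITGB1* and *ITGA5* each held 1 TEAD match, at bases -182 to -177 and -82 to -77 from the TSS. *ITGA5* also held 1 SMAD and 1 E-box match, and the window of *COL11A1* held no match to the 5 motifs. *ITGA6* stood apart with 7 E-box matches and a GC content of 50.8%, whereas the other 4 sequences had 64.4% to 74.8% GC. Among the 30 members with a window, a TEAD match was found in 13.3%, against 11.9% of all 27305 promoters, and an AP-1 match in none, against 6.60%. The OTX and CRX letters were found in 3.33% against 5.67%, the SMAD letters in 6.67% against 13.6% and the E-box in 43.3% against 62.2%. These are matches of letters only.

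Among the 9 fibrillar collagens, 3 had an SE in UW228 (all genes 5.24%), 1 in HD-MB03 (all genes 3.03%) and none in MB002 (3.18%) or D425 (4.18%). *COL1A2*, a chain of type I collagen, the main collagen of connective tissue, had 737 ppm in UW228, against 217, 144 and 245 ppm in MB002, D425 and HD-MB03. The G3-MB lines lay close together and below UW228, with a log2 difference of 1.898 beside an SD of 0.40 over the 3 G3-MB lines. Its UW228 region was an SE of rank 75 at chr7:94339204-94425726, which joined 26 peaks over 86.5 kb and covered the TSS. The input density of this SE was 1.47 times the median of the line. The best region assigned to it in each G3-MB line stopped upstream of the TSS, by 4557, 2631 and 4985 bp in MB002, D425 and HD-MB03. D425 had another region of rank 607 overlapping the UW228 SE, which lay beyond 50 kb of the TSS and is not in these sums.

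*COL1A1*, the partner chain of *COL1A2*, had 407 ppm in UW228, against 315, 45.9 and 307 ppm in MB002, D425 and HD-MB03. UW228 was the highest by sum but not by best rank, where MB002 led with a percentile of 1.82 against 8.63 in UW228. The best region of MB002 and of HD-MB03 lay about 40 kb away and overlapped *PPP1R9B*. In UW228 the gene had 16 separate regions, of which 15 lay less than 12 kb from the next although the header of the table names a stitching distance of 12 kb. Joined, the 15 spanned 50169403 to 50223929 on chromosome 17 and their signal passed the deposited SE threshold of the line at rank 422.

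*COL3A1*, the chain of type III collagen, had 314 ppm in UW228, against 6.73 ppm, 2.60 ppm and no region in MB002, D425 and HD-MB03. Its UW228 SE, at chr2:188973722-188985307 and rank 546, was a single peak of 11.6 kb over the TSS with 2.57 signal units per bp, the highest density of the 13 SEs. *COL5A2*, which lies next to it and encodes a type V chain that regulates fiber diameter, had 924 ppm in UW228, against no region, 214 ppm and 3.28 ppm in MB002, D425 and HD-MB03. It had 6 regions in D425 and 6 in UW228. The UW228 SE at chr2:189084695-189180019 lay inside the gene body but 261092 bp from the TSS, with *COL3A1* as the closest TSS, and a D425 region of rank 1407 overlapped it. RefSeq gives this gene a body of 409 kb. Only the outer end of this body was used as the TSS, so the distances leave out any start inside it. The call stood with the GENCODE 44 coordinates but was lost when only regions within 50 kb of the TSS were counted.

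*COL5A1*, the other type V chain, had 221 ppm in UW228, against 8.19 ppm, no region and 1227 ppm in MB002, D425 and HD-MB03. HD-MB03 was the highest, with an SE of rank 109 at chr9:134681878-134751586 inside the gene body. The best UW228 region covered the TSS instead, and only 7.22% of the HD-MB03 SE was covered by a region of UW228. *COL27A1*, a fibrillar collagen of cartilage, had 60.3 ppm in UW228, against 295, 574 and 106 ppm in MB002, D425 and HD-MB03, a log2 difference of -2.10 with an SD of 1.22 over the G3-MB lines. D425 listed 22 separate regions there. Of these, 20 lay under 12 kb apart and passed the SE threshold of the line once joined, at rank 169.

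*COL2A1*, the main collagen of cartilage, had no region in UW228, against 109, 1.67 and 8.41 ppm in MB002, D425 and HD-MB03. *COL11A1* had 174 ppm in UW228, against 185 ppm, 23.2 ppm and no region in MB002, D425 and HD-MB03, so that MB002 and UW228 were alike and HD-MB03 stood apart. *COL5A3* had 1.16 ppm in MB002 and 5.27 in D425 and no region elsewhere.

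Of the 4 network collagens, 3 had an SE in UW228 (all genes 5.24%) and none in a G3-MB line (all genes 3.03% to 4.18%). *COL4A2* and *COL4A1* encode the chains of the main basement membrane collagen and are transcribed in opposite directions from adjoining promoters. *COL4A2* had 595 ppm in UW228, against no region, 12.4 ppm and 245 ppm in MB002, D425 and HD-MB03, and *COL4A1* had 301 ppm in UW228, no region in MB002, 161 ppm in D425 and 67.5 ppm in HD-MB03. The UW228 SE at chr13:110390702-110418573 (rank 411) lay inside *COL4A2*, 83418 bp from its TSS. It was assigned to *COL4A2* only, and the call was lost when only regions within 50 kb of the TSS were counted. These genes were the only members that shared regions, 14 in UW228, 3 in HD-MB03 and 1 in D425, and at their promoters UW228 listed 13 regions under 12 kb apart. Joined, these ranked 1223 and stayed below the SE threshold.

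*COL8A1* and *COL8A2*, chains of the short network collagen of vessel walls and the cornea, both had SEs in UW228. *COL8A1* had 638 ppm in UW228, against 54.7, 2.59 and 3.38 ppm in MB002, D425 and HD-MB03, and its SE at chr3:99623689-99724943 covered the TSS with 28 peaks over 101.3 kb. Regions of MB002 covered 3.67% of this span, those of D425 0.257% and those of HD-MB03 none. *COL8A2* had 643 ppm in UW228, against 249, 149.6 and 132 ppm in MB002, D425 and HD-MB03. UW228 was again the highest, but the G3-MB lines lay close to each other, with an SD of 0.48 and a log2 difference of 1.91. Its UW228 SE at chr1:36131890-36204998 lay outside the gene body, 6668 bp from the TSS, and overlapped *TRAPPC3* and *MAP7D1*. Regions of MB002, D425 and HD-MB03 covered 36.1%, 14.8% and 37.6% of it.

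The beaded filament collagens, whose chains assemble into type VI microfibrils around cells, differed in the line with the SE. *COL6A1* had no region in UW228, but 41.2, 49.7 and 1321 ppm in MB002, D425 and HD-MB03. Its rank in UW228 was no longer the worst with gene bodies only or with a 100 kb window, which moved the log2 difference from -7.14 to -0.57. The HD-MB03 SE at chr21:45860792-46000827 had rank 24 in its line, the best of any member in a G3-MB line, and joined 33 peaks over 140.04 kb that also overlapped *PCBP3*. *COL6A3* had 547 ppm in UW228 and no region in the G3-MB lines. Its SE at chr2:237456600-237504186 (rank 250) lay 42436 bp upstream of the TSS and overlapped *MLPH*, and it was lost with a 25 kb window or with gene bodies only. Each G3-MB line had 1 region inside this span, over 1.31% to 1.52% of its length, beyond 50 kb of the *COL6A3* TSS. *COL6A2* had 101.2 ppm in UW228, against 4.18, 38.0 and 11.3 ppm in MB002, D425 and HD-MB03. None of its best regions touched the gene body, and with a 100 kb window it was no longer better in UW228.

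No SE was assigned to the remaining 9 collagens in any line. *COL7A1*, the collagen of the fibrils that anchor the skin basement membrane, had 148 ppm in UW228, against 14.5, 15.1 and 90.2 ppm in MB002, D425 and HD-MB03. The best G3-MB regions overlapped *PFKFB4* and the UW228 one *UQCRC1*, and by signal per bp the gene ranked worse in UW228 than in every G3-MB line. Among the FACIT collagens, which bind to the surface of fibers, *COL12A1* had 4.94, 13.7 and 217 ppm in MB002, D425 and UW228, and *COL14A1* had 0.489, 91.9 and 477 ppm, while HD-MB03 had no region at either. *COL16A1* had 88.3 ppm in UW228, against 38.9, 173 and 374 ppm in MB002, D425 and HD-MB03, so that UW228 lay within the G3-MB range. *COL9A1* had 2.63 ppm in MB002, 2.82 in D425 and no region in HD-MB03 or UW228.

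Of the transmembrane collagens, *COL25A1*, a neuronal type, had 73.8 ppm in UW228, against 202, 22.0 and 28.8 ppm in MB002, D425 and HD-MB03, with 9 regions in MB002 and 7 in UW228. *COL13A1* had no region in MB002 or D425, 4.18 ppm in HD-MB03 and 11.2 in UW228. Of the multiplexins, basement membrane collagens with heparan sulfate or chondroitin sulfate chains, *COL18A1* had 238 ppm in D425, 93.7 in UW228 and no region in the other lines. *COL15A1* had 98.4 ppm in UW228, against no region, 0.741 ppm and 16.7 ppm in MB002, D425 and HD-MB03.

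**Figure D3:**
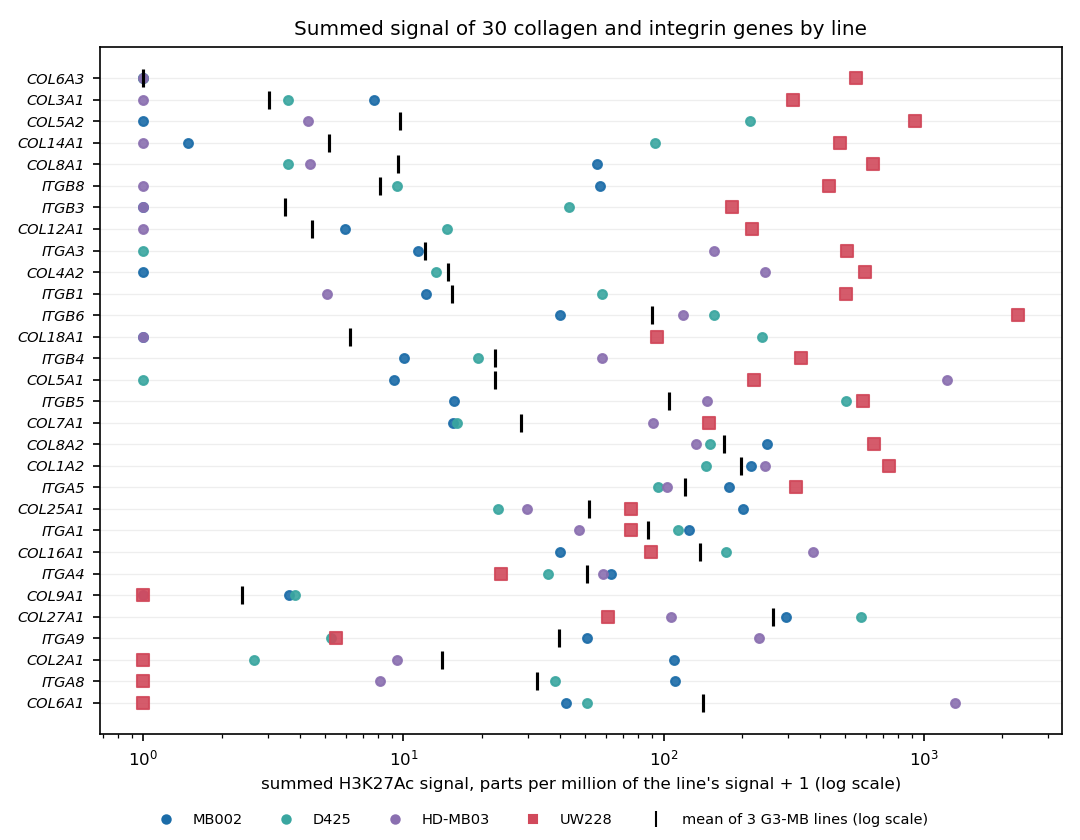
Points give the summed H3K27Ac signal of 30 genes in each line, in ppm of the signal of the line plus 1 on a log scale, and black ticks give the mean of the 3 G3-MB lines on the log scale. UW228 (squares) is the highest for 18 genes, including *COL6A3*, where all G3-MB lines sit at 0 ppm, and sits at 0 ppm for *COL6A1*, *ITGA8*, *COL2A1* and *COL9A1* at the bottom.

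Among the 4 alpha integrins that bind collagen, none had an SE, and *ITGA10* and *ITGA11* had better ranks in UW228 than in every G3-MB line. *ITGA11*, the receptor for fibrillar collagen on fibroblasts, had 202 ppm in UW228, against 6.37 ppm, no region and 49.1 ppm in MB002, D425 and HD-MB03. *ITGA10* had 136 ppm in UW228, against 4.84 ppm, no region and 16.5 ppm in MB002, D425 and HD-MB03. *ITGA1* had 74.1 ppm in UW228, against 124, 112 and 46.1 ppm in MB002, D425 and HD-MB03, so the lines overlapped, and its best region in all 4 lines also overlapped *PELO*, which lies within it. *ITGA2* had 49.0 ppm in D425, 73.2 in UW228 and no region in MB002 or HD-MB03.

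*ITGA3*, a laminin receptor subunit, had 507 ppm in UW228, against 10.3 ppm, no region and 156 ppm in MB002, D425 and HD-MB03. Its UW228 SE of rank 167 at chr17:50026418-50067805 covered the TSS over 41.4 kb. The input density there was 0.535 times the median of the line. A HD-MB03 region of rank 1664 also covered the TSS and 40.0% of the SE. The other laminin-binding subunits did not share this order. *ITGA6* had 177 ppm in UW228, against 225, 113 and 468 ppm in MB002, D425 and HD-MB03, and *ITGA7* had 58.6 ppm in UW228, against 224, 32.4 and 233 ppm. HD-MB03 was the highest at both.

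Of the subunits that bind the RGD tripeptide of fibronectin and vitronectin, *ITGA5* had 323 ppm in UW228, against 177, 94.4 and 102 ppm in MB002, D425 and HD-MB03, with a log2 difference of 1.43 and an SD of 0.49. Its SE in UW228 at chr12:54407399-54439740 covered the TSS, whereas the best G3-MB regions overlapped *ZNF385A* and lay 29621 to 40180 bp away. A weaker MB002 region of rank 6004 covered 37.2% of this SE, a D425 region covered 10.8% and HD-MB03 had none there. In MB002, 11 regions near it lay under 12 kb apart and passed the SE threshold of that line once joined, at rank 192. With these joined, or with a 100 kb window, *ITGA5* was no longer better in UW228 than in every G3-MB line. *ITGAV* had 220.0 ppm in UW228, against 27.1, 115 and 4.96 ppm in MB002, D425 and HD-MB03. *ITGA8*, known from kidney and smooth muscle, had no region in UW228, against 109.7, 37.4 and 7.09 ppm in MB002, D425 and HD-MB03.

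The alpha subunits of the remaining type, which pair mainly with beta 1 and bind VCAM1 and fibronectin, had no SE in any line. *ITGA4*, known from leukocytes and neural crest, had 22.8 ppm in UW228, against 61.8, 34.8 and 57.6 ppm in MB002, D425 and HD-MB03. The difference of -1.10 (log2) exceeded the SD of 0.44 over the G3-MB lines, but it changed sign when only regions on the gene body were counted (3.55) and with a TSS window of 25 kb (2.28) or 100 kb (0.41). All best G3-MB regions lay 44822 to 45309 bp from the TSS, whereas the UW228 region lay in the gene body. *ITGA9* had 4.48 ppm in UW228, against 49.8, 4.25 and 231 ppm in MB002, D425 and HD-MB03, which lay between D425 and MB002.

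Of the 6 beta integrins, 4 had an SE in UW228 (all genes 5.24%) and 1 in D425 (all genes 4.18%), and 5 ranked better in UW228 than in every G3-MB line (all genes 20.3%). *ITGB1*, the subunit shared by most matrix integrins, had 501 ppm in UW228, against 11.3, 57.0 and 4.06 ppm in MB002, D425 and HD-MB03. Its UW228 SE of rank 170 at chr10:32938270-33009817 covered the TSS and joined 16 peaks over 71.5 kb. Regions of MB002 covered 1.49% of it, those of D425 8.02% and those of HD-MB03 none. The log2 difference was 5.03 with an SD of 1.78 over the G3-MB lines.

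*ITGB5*, the vitronectin receptor subunit that pairs with *ITGAV*, was the only member with SEs in both groups. It had 585 ppm in UW228, against 14.6, 503 and 146 ppm in MB002, D425 and HD-MB03, so D425 and UW228 lay close together and above the other lines. The D425 SE at chr3:124800437-124843095 had rank 290 and the UW228 SE at chr3:124808266-124862555 had rank 386. Of the D425 SE, 81.6% was covered in UW228, and both lay inside the gene body.

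*ITGB6*, an epithelial subunit that activates latent TGF-beta, was assigned the region of rank 2 in UW228. It had 2312 ppm in UW228, against 39.0, 155 and 118 ppm in MB002, D425 and HD-MB03. This SE, at chr2:160203052-160436521, joined 57 peaks over 233 kb, the most peaks of any UW228 region. It began 2780 bp upstream of the *ITGB6* TSS, did not touch the gene body and overlapped *RBMS1*. Ranked by signal per bp, *ITGB6* was worse in UW228 than in every G3-MB line. *ITGB4*, the hemidesmosome subunit that pairs with *ITGA6*, had 337 ppm in UW228, against 9.07, 18.3 and 57.0 ppm in MB002, D425 and HD-MB03. Its UW228 SE at chr17:75679385-75708035 likewise lay outside the body, 13424 bp away, and overlapped *SAP30BP*. The best G3-MB regions lay in the *ITGB4* body and overlapped *GALK1*. With regions on the gene body only, UW228 had none at *ITGB4* and the difference turned to -4.44 (log2).

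*ITGB8*, which activates latent TGF-beta in brain and other tissues, had 431 ppm in UW228, against 55.8 ppm, 8.45 ppm and no region in MB002, D425 and HD-MB03. Its best UW228 region had rank 790 in a line with 753 SEs, so it was not an SE, and covered the TSS. *ITGB3*, a subunit of platelet and vascular integrins, had 42.4 ppm in D425, 182 in UW228 and no region in MB002 or HD-MB03. *MYL4* was overlapped by its best region in both lines.

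**Figure D4:**
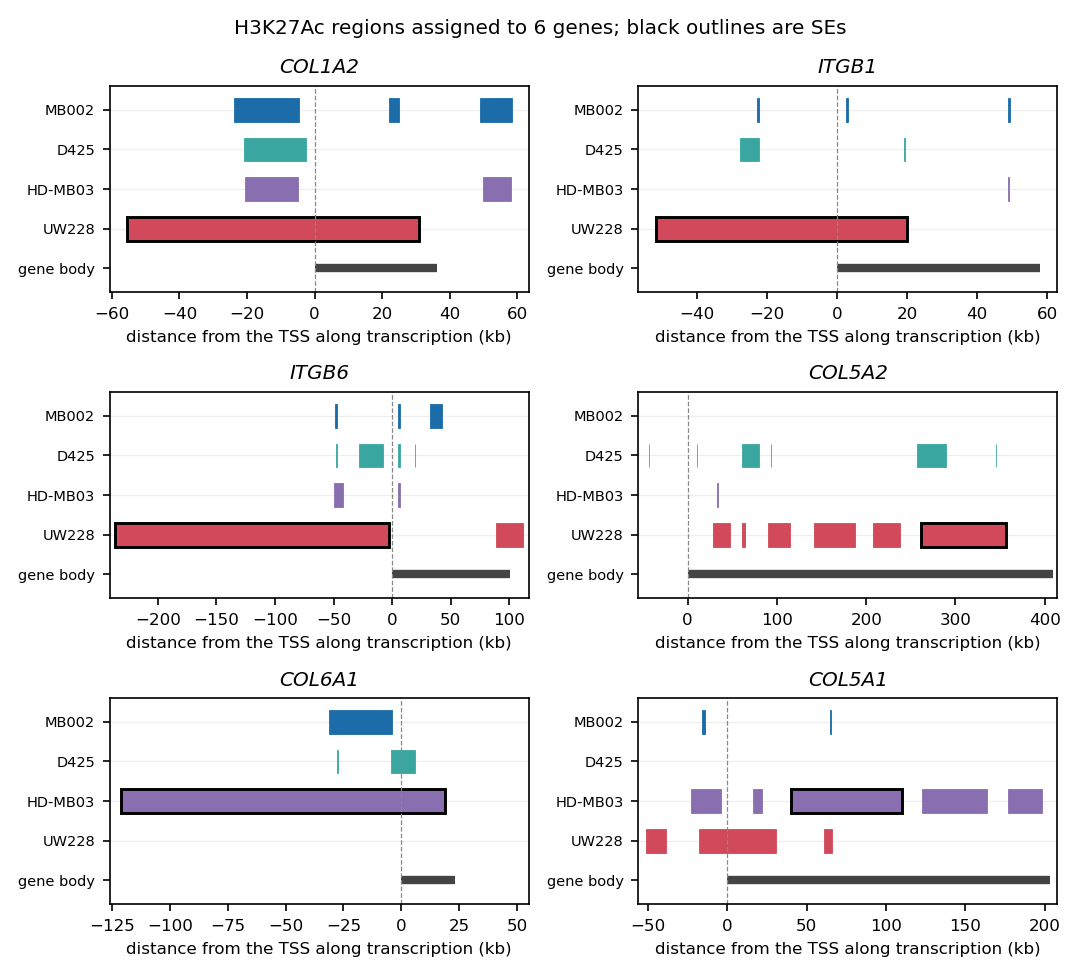
Colored blocks show the H3K27Ac regions assigned to 6 genes in each line by their distance from the TSS in kb along transcription, with black outlines for SEs and a gray bar for the gene body. The UW228 blocks of *COL1A2* and *ITGB1* span the TSS, the SE of *ITGB6* lies wholly upstream of it, with a second block at the end of the gene body, and the HD-MB03 SE of *COL6A1* has no UW228 counterpart.

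Of the 13 SEs in UW228, 6 covered the TSS of the member and 4 (*COL6A3*, *COL8A2*, *ITGB4* and *ITGB6*) lay outside its gene body. Their length ran from 11.6 to 233 kb with a median of 54.3 kb. With gene bodies only, 9 members kept an SE in UW228 (20.9%, all genes 3.05%). The input density of the 13 SEs was 0.535 to 1.47 times the median of the line. Over all members with a region, the best region covered the TSS for 11 of 38 in UW228 (28.9%, all genes with a region 7.74%), 4 of 34 in MB002 (11.8%, all 8.76%), 2 of 37 in D425 (5.41%, all 7.91%) and 4 of 32 in HD-MB03 (12.5%, all 8.65%).

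The members' regions in UW228 were longer in sum and at the median, and their mean density was also the highest. The 134 regions of the members covered 1823 kb in UW228 with a mean of 0.735 signal units per bp. The 80 of MB002 covered 509 kb at 0.541 per bp, the 97 of D425 covered 528 kb at 0.506 and the 75 of HD-MB03 covered 633 kb at 0.450. Over all regions the means were 0.702, 0.596, 0.508 and 0.581 in UW228, MB002, D425 and HD-MB03. The members held 1.28% of all signal in UW228 against 0.290%, 0.335% and 0.586% in MB002, D425 and HD-MB03. Their best region had a median length of 21.6 kb in UW228 and 2.31, 4.93 and 3.94 kb in MB002, D425 and HD-MB03, while the median signal per bp was 0.732, 0.831, 0.587 and 0.504 in the same order. Over all regions the median length was 2264 bp in UW228 and 1287 to 1585 bp in the G3-MB lines. Ranked by signal per bp, 8 members were worse in UW228 than in every G3-MB line (18.6%, all genes 22.7%).

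**Figure D5:**
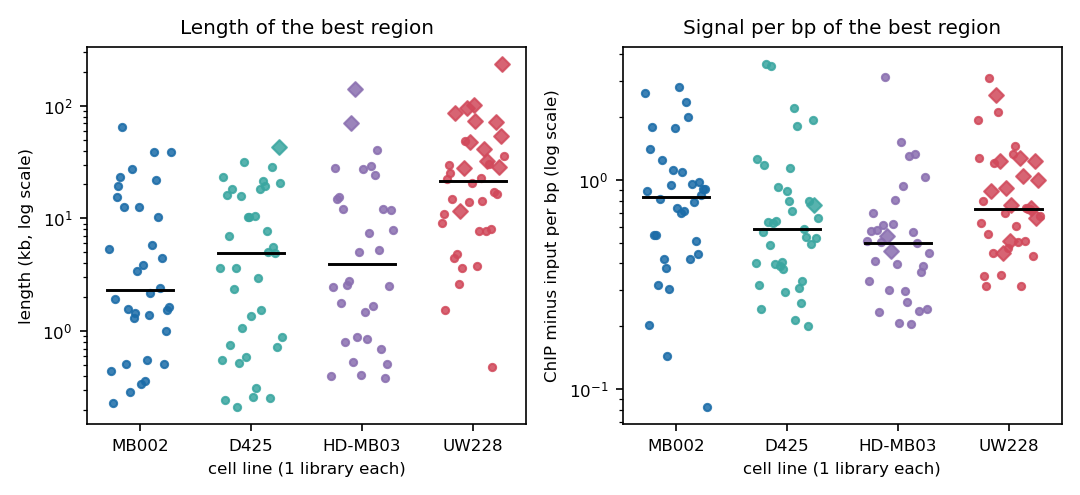
Each point is the best-ranked region of a member in 1 line, with its length in kb (left) and its signal minus input per bp (right), both on log scales, with diamonds for SEs and a black line at the median. The median length is 21.6 kb in UW228 and at most 4.93 kb in the G3-MB lines, whereas the median signal per bp in UW228 (0.732) lies between those of MB002 (0.831) and D425 (0.587).

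Regions of the members were shared between lines to varying degrees. Of the 134 in UW228, 56 overlapped a region of some G3-MB line by at least 1 bp (41.8%, all UW228 regions 42.5%), and 25 did so over 50% of their length (18.7%, all 25.7%). D425 overlapped 31.3% of them (all UW228 regions 29.97%), HD-MB03 23.9% (all 18.7%) and MB002 20.1% (all 24.7%). In the other direction, UW228 overlapped 47.4% of the D425 regions of the members (all D425 regions 24.4%), 33 of the 75 of HD-MB03 (all 26.2%) and 28 of the 80 of MB002 (all 20.3%).

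Letters of the 5 motifs were counted in the regions of the members and in all regions of each line. The OTX and CRX letters were less dense in the members' regions in all 4 lines, with 0.668 matches per kb against 0.811 in UW228, 0.6998 against 0.878 in MB002, 0.638 against 0.907 in D425 and 0.485 against 0.776 in HD-MB03. AP-1 letters were most dense in UW228 over all regions, with 0.448 per kb against 0.312 to 0.340 in the G3-MB lines, and there the members lay below the line as a whole, with 0.402. TEAD, SMAD and E-box letters differed from all regions by at most 1.15 times in every line.

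Of the 27 collagen and integrin genes outside the list, none had an SE in any line, 15 had a region in UW228 (55.6%, all genes 59.0%), 6 ranked better in UW228 than in every G3-MB line (22.2%, all genes 20.3%) and 8 worse (29.6%, all genes 23.7%). Over the 70 genes, 29 were better (41.4%) and 13 worse (18.6%).

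Genes that act with the members were counted from lists by role, and the shares over all genes are those above, 5.24% with an SE in UW228, 20.3% better and 23.7% worse. Among 21 matrix ligands, the proteins that integrins bind or that are laid down beside collagen, 7 had an SE in UW228 (33.3%), 2 in D425, 1 in MB002 and none in HD-MB03, and 13 ranked better in UW228 (61.9%) and 1 worse (4.76%). *SPARC*, a collagen-binding matrix protein, had 604.6 ppm in UW228 and 99.3 to 133 ppm (D425) in the G3-MB lines. *FN1*, the gene of fibronectin, had 279 ppm in UW228 and at most 26.03 ppm (D425) in the G3-MB lines, without an SE. *LAMB1*, a laminin chain, had SEs in MB002, D425 and UW228 alike, with 740.4, 622 and 509 ppm.

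Among 20 integrin adaptors, which link the beta tails to actin, 7 had an SE in UW228 (35% of the list), 3 in D425, 2 in HD-MB03 and 1 in MB002, and 9 ranked better in UW228 (45%) and 1 worse (5%). *TNS3*, a tensin, had 2204 ppm in UW228, 1198 in D425, 28.6 in HD-MB03 and no region in MB002. *ACTN4*, an actin crosslinker, had SEs in UW228, D425 and HD-MB03. Among 15 genes of collagen processing, only *PLOD2*, a lysyl hydroxylase, had an SE in UW228 (6.67%), and as many ranked better (6, 40%) as worse (6, 40%). *SERPINH1*, the collagen chaperone, had its SE in MB002 with 727 ppm against 113 in UW228 and 70.5 in D425. *LOXL1* and *BMP1*, which crosslink and trim matrix proteins, had theirs in D425. Of 5 other collagen receptors, *DDR2* alone had an SE in UW228, with 676 ppm against 224 (D425) to 359.5 ppm in the G3-MB lines.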

How the data were processed

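ChIP-seq of H3K27Ac and input chromatin was done in 4 lines. Bowtie 2 2.3.0 was used by the authors for alignment to GRCh38. SAMtools 1.9 was used for conversion and sambamba to remove multi-mappers and duplicates. Peaks over input were called with MACS2 2.2.6, and TSS-distal peaks were stitched and ranked with ROSE. The deposited signal of each region is a read density scaled to mapped reads and multiplied by region length, and input was not subtracted from it. The deposited score is the rank, beside an SE call. Depth is not given by these values.

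Tables were read with Python 3.11.15, numpy 2.4.6 and pandas 2.3.3 and plotted with matplotlib 3.10.9. Of 29978 curated RefSeq genes, the 27449 whose strand GENCODE 44 gave were used, and their assignment was tested on simulated data. Motifs were counted in hg38. Members and lists were chosen with earlier results of these data known. Genes named with values in every line were those with an SE, the 10 highest and 6 lowest log2 differences and the best rank of each role group, and the other 13 are given by role.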

Additional observations from a re-analysis of the deposited data

How the results depend on the processing

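No p was computed, since an exact permutation of 3 lines against 1 gives none below 0.25. Alternatives covered the gene assignment, input, ranking by density, number of regions, chromosomes, annotation and stitching, the last 2 chosen after seeing the data. So were the background of protein-coding genes at least as long as the shortest member and the count of shared regions for each member. Of the recomputed summary values, 102 stayed close to the reported ones, counts within 1.5 times, and 18 did not. The number of members with a region did so in every setting run. With TSSs within 50 kb only, D425 had 0 members with an SE and UW228 had 11, without *COL4A2* and *COL5A2*. With gene bodies only, 3 members were worse in UW228 and the median log2 difference was 3.73, and a 25 kb window also gave 3 worse. A 100 kb window gave a median of 2.33, and pseudocounts of 0.1 and 10 gave 3.99 and 2.19. Ranking by signal per bp gave SE counts of 2, 2, 1 and 5 in MB002, D425, HD-MB03 and UW228, with 14 members better and 8 worse in UW228, and only 2 of the 13 UW228 SE genes kept the call. By that ranking *ITGB6* and *COL7A1* went from better to worse in UW228. Joining neighbours under 12 kb gave 1 in MB002, 2 in D425 and 14 in UW228. Leaving out each G3-MB line gave 24 to 27 members better and 6 to 9 worse, with 9 worse without D425 or without HD-MB03, and a median log2 difference of 2.42 to 3.59. Requiring 50% overlap left 25 shared UW228 regions in place of 56. Log2 differences of single genes reversed for *ITGA4* (3.55 with gene bodies only, 2.28 at 25 kb, 0.41 at 100 kb) and *ITGB4* (-4.44 with gene bodies only), whose regions enter or leave with the window. Genes whose difference was smaller than the SD of the G3-MB lines also changed sign: *COL25A1* (-1.05 with TSSs only, -0.06 without D425), *ITGA1* (0.71 at 100 kb, 0.04 without MB002) and *COL16A1* (0.04 with gene bodies only, 0.10 without HD-MB03). Division by local relative input gave 15 members with an SE in UW228. No paired analysis was possible because the libraries compared come from different cell lines, whose numbers only name samples, and no test was run.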
